A study of Homo sapiens with 5 samples.

Results

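The genes described here are 39 genes of the proteasome, out of 20163 protein-coding genes in the GENCODE annotation. They were listed by name, with earlier results of these data known, and placed on the human genome build hg19. They comprise 7 genes of the 20S alpha ring, 7 of the constitutive beta ring, 3 immunoproteasome beta subunits, 6 ATPases and 3 other subunits of the 19S base, 8 subunits of the 19S lid, 4 genes of activator caps and the assembly factor POMP. The data are ChIP-seq peaks of the transcription factors Nrf2 and HIF1α in BEAS-2B cells, a line of human bronchial epithelial cells immortalized in culture. All cells were starved of serum overnight. They were then left untreated (control) or given arsenic (iAs) at 1 µM for 6 h, and each factor was precipitated in each condition, in 1 library per factor and condition.

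The proteasome degrades proteins that carry ubiquitin chains. Its 20S core is a barrel of alpha and beta rings with the proteolytic sites inside, and the 19S particle on its end binds, unfolds and feeds in the substrate. Nrf2 is a stress-activated factor of the CNC family that binds the antioxidant response element (ARE) with small Maf partners, and its relative Nrf1, encoded by NFE2L1, is known for driving proteasome genes when proteasome activity falls. HIF1α is the oxygen-sensitive subunit of hypoxia-inducible factor, whose binding site has the core ACGTG or GCGTG.

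The lists held 3204 Nrf2 peaks in control cells, 7743 Nrf2 peaks with iAs, 6008 HIF1α peaks in control cells and 12826 HIF1α peaks with iAs. They give intervals only, with neither heights nor scores, and the read depth is unknown. With 1 library per group there was no replicate check, so no difference was tested, and the counts over the 39 genes are given beside the share of all protein-coding genes with such a peak (background). The longer lists place more peaks at any gene, and the 2 conditions of a factor cannot be told apart from the 2 libraries.

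Short stretches under the Nrf2 peaks are shown first. The letters of the ARE core TGACNNNGC or of the AP-1 type heptamer TGACTCA were present in 12 of the 16 Nrf2 iAs peaks at proteasome gene start sites (75.0%). Over all start-site Nrf2 iAs peaks the share was 44.7%. Both shares are for whole peaks, and the proteasome peaks were wider (median 488.5 bp against 329 bp), which leaves more room for a match. Within 100 bp of the peak centre the shares were 62.5% and 29.6%. The position of TGACTCA was similar from gene to gene. Each line gives 30 bases of hg19 read 5′ to 3′ on the strand that carries the motif, with the matching letters in capitals. The first 5 genes carry TGACTCAGC, which satisfies both motifs, under an Nrf2 iAs peak.
PSMA3: ctgaagaaagTGACTCAGCaatccaaagcg
PSMA5: gacccaggggTGACTCAGCggtaggacaag
PSMD1: tcaccggcccTGACTCAGCtaaaagccggc
PSMD7: agcgtgcccgTGACTCAGCagcggctgcgc
PSMD12: ctccgcgccgTGACTCAGCccctggcgccc
These stretches lie at chr14:58711914-58711943 (minus strand), chr1:109968711-109968740 (plus), chr2:231921803-231921832 (minus), chr16:74330917-74330946 (minus) and chr17:65362471-65362500 (plus). All 5 were in intron 1, from 208 bp to 368 bp downstream of the canonical start site, and all 5 faced against the direction of the gene. At other genes, Nrf2 iAs peaks covered 11 such sites in the first 500 bp after a canonical start site, of which 9 faced against the gene, and 33 sites in the 500 bp before it, where the proteasome genes had 0.

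Another 4 genes carried TGACTCA without the trailing GC, again in intron 1.
PSMD11: tctgatgctgcTGACTCActgtgtgagggg
PSMD14: gctgggcaacgTGACTCAggaaagcacggg
PSMD4: gggccccgggaTGACTCAgggagtccagcg
PSMC5: cagccttgcccTGACTCAccgagggcggcg
They lie at chr17:30771723-30771752 (plus strand), chr2:162165178-162165207 (minus), chr1:151227418-151227447 (minus) and chr17:61905034-61905063 (minus). PSMD11 held a second copy 330 bp from its start site. Counting both kinds, 9 proteasome genes had 10 TGACTCA sites under start-site Nrf2 iAs peaks, and 10 of the 10 lay in intron 1 between 209 bp and 369 bp from the canonical start site. Of these 10, 8 faced against the gene, and both copies at PSMD11 read with it. The heptamer differs from its reverse complement only in the middle letter, so its direction rests on that letter. At both PSMD11 copies GC comes directly before the heptamer, and on the opposite strand it trails. 3 further genes had only ARE cores with other middle letters.
PSMC3: gagagtccagTGACTCGGCaggagaagatg
PSMD3: tcccctttgtTGACTCGGCcatcggcctgc
PSMB6: ccaaagagcgTGACAGAGCgctttacgaca
The PSMC3 site, at chr11:47447780-47447809 (minus strand), was in coding exon 1. The PSMD3 and PSMB6 sites, at chr17:38137013-38137042 and chr17:4699430-4699459 (both plus), began upstream of the start site. Neither motif was found in the start-site Nrf2 peaks of PSMA1, PSMB5, PSMC1 and POMP. For contrast, PSMD2 holds the same letters in intron 1, 205 bp from its start site at chr3:184017219-184017248 (minus), and had no Nrf2 peak in either condition.
PSMD2: ggagccgccgTGACTCAGCcccgcagcctc

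With iAs, 16 of the 39 proteasome genes had an Nrf2 peak that overlapped the 1 kb on either side of an annotated start site, or 41.0%, where all protein-coding genes had one in 5.99% and genes of similar length in 5.77%. In control cells 7 of the 39 had one, against 2.75% of all genes. In the wider window of the gene body and 10 kb around it, 7 genes had an Nrf2 control peak (background 10.6%) and 18 had an Nrf2 iAs peak (background 19.6%, 15.6% at similar length). The genes that joined at the start sites with iAs were PSMA5, PSMB5, PSMB6, PSMC1, PSMC3, PSMC5, PSMD3, PSMD4 and POMP. Those 9 had an Nrf2 peak there that overlapped no Nrf2 control peak, against 3.77% of all genes, and in the wider window 12 had one, against 13.7%. The 7 genes with an Nrf2 control peak all had an Nrf2 peak with iAs, as did 95.7% of other genes with a control peak.

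HIF1α peaks were found at more of the proteasome genes, and also at far more genes of every kind. At start sites 17 of the 39 (43.6%) had one in control cells (background 17.7%) and 28 (71.8%) had one with iAs (background 44.3%, 43.1% at similar length). In the wider window the counts were 20 (background 29.0%) and 31 (background 54.7%). A HIF1α iAs peak that overlapped no HIF1α control peak was found at the start site of 16 genes (41.0%, background 32.8%) and in the wider window of 20 (51.3%, background 43.5%). Peaks of both factors with iAs were found at 13 start sites (background 4.92%) and in 15 wider windows (background 14.9%).

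Other groups of housekeeping complexes gave a scale for these shares. The 80 cytosolic ribosomal protein genes had a HIF1α iAs peak at the start site in 77.5%, above the proteasome genes at 71.8%, but an Nrf2 iAs peak in 16.2%. The 37 mitochondrial complex I genes had 64.9% and 8.11%. In control cells the Nrf2 share was 13.8% for ribosomal protein genes, 5.41% for complex I genes and 17.9% for proteasome genes. Nrf2 peaks found with iAs only lay at the start sites of 3 ribosomal protein genes (3.75%) and 1 complex I gene (2.70%). The share of all genes was 3.77%.

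**Figure D1:**
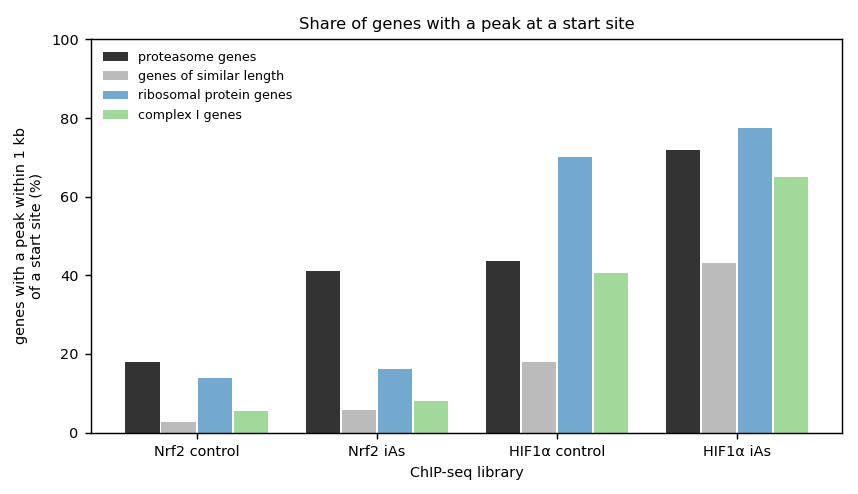
Percent of genes (y axis, 0 to 100) with a peak within 1 kb of a start site in each of the 4 ChIP-seq libraries (x axis), for the 39 proteasome genes, protein-coding genes of similar length, 80 ribosomal protein genes and 37 complex I genes; there are no error bars because each bar is 1 library. With Nrf2 and iAs the proteasome bar stands at 41.0% and the others at 16.2% or below, whereas with HIF1α and iAs the ribosomal bar, at 77.5%, is the tallest.

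Where an Nrf2 iAs peak fell near a proteasome gene, it was mostly at the start site. Of 18 proteasome genes with such a peak in the wider window, 16 had it at a start site, or 88.9%, against 30.3% of other genes. Of 20 separate Nrf2 iAs peaks near these genes, 16 had their centre within 1 kb of a start site. This is 80.0% (95% Wilson interval 58.4 to 91.9, counting error only), against 14.2% of all Nrf2 iAs peaks. The 20 were chosen for lying in or within 10 kb of a gene, and the whole list was not. That choice by itself raises the share at start sites. HIF1α iAs peaks had no such contrast, at 73.2% near proteasome genes and 78.1% overall. Among genes with a HIF1α iAs peak at the start site, 13 of 28 proteasome genes (46.4%) also had an Nrf2 iAs peak there, against 980 of 8897 other genes. Among genes without one, the counts were 3 of 11 and 1.88%.

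The lid, which removes ubiquitin from the substrate, held 5 of the 16 genes with a start-site Nrf2 iAs peak. 4 of its 8 genes had an Nrf2 peak at the start site in control cells (background 2.75%) and 5 with iAs (background 5.99%), and those 5 also had a HIF1α iAs peak there (background 44.3%). At PSMD12, a scaffold subunit, the Nrf2 peak measured 633 bp without iAs and 642 bp with it, and the HIF1α peak 403 bp and 528 bp. At PSMD7, the partner of the deubiquitinase, Nrf2 peaks measured 390 bp and 772 bp and HIF1α peaks 366 bp and 679 bp. PSMD14, the deubiquitinase itself, had Nrf2 peaks of 248 bp and 681 bp and HIF1α peaks of 249 bp and 546 bp. These 3 genes had peaks in all 4 libraries, as did 5 of the 39 proteasome genes and 5.26% of other genes. PSMD14 also had a HIF1α iAs peak of 298 bp, downstream of the gene and nearest to TBR1.

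PSMD11, another scaffold subunit, had Nrf2 peaks of 341 bp and 642 bp and, with iAs only, HIF1α peaks of 293 bp at the start site and of 241 bp downstream of the gene, nearest to CDK5R1. PSMD3 had HIF1α peaks of 451 bp and 555 bp in control and iAs cells, and its Nrf2 peak of 290 bp was found with iAs only. Of the 5 lid genes with an Nrf2 iAs peak, PSMD3 was the one without an Nrf2 peak before iAs.

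In the base of the 19S particle, PSMD1, a large scaffold that receives ubiquitin-binding proteins, had the widest Nrf2 peak of any proteasome gene, at chr2:231921185-231922352. Its width was 1064 bp without iAs and 1168 bp with it, and 54 of the 3204 Nrf2 control peaks and 340 of the 7743 Nrf2 iAs peaks were at least as wide. Its HIF1α peaks were 558 bp and 714 bp. 2 smaller Nrf2 iAs peaks lay deep in the gene, one of 190 bp in intron 16 and one of 424 bp in intron 20, where an Nrf2 control peak of 235 bp also lay, and a HIF1α control peak of 190 bp lay in intron 16. PSMD4, a ubiquitin receptor, had a single peak, of Nrf2 with iAs, 280 bp wide.

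The 6 ATPases form the ring that unfolds the substrate. None had an Nrf2 control peak in the wider window (background 10.6%), and 3 had a start-site Nrf2 peak with iAs (background 5.99%). PSMC1 had a single peak, of 291 bp. PSMC3 had an Nrf2 iAs peak of 306 bp inside a HIF1α iAs region of 472 bp, and a further HIF1α iAs peak of 350 bp at the start of a neighbouring gene, SLC39A13. PSMC5 had an Nrf2 iAs peak of 418 bp, centred 245 bp into the gene, beside HIF1α peaks of 606 bp (control) and 691 bp (iAs) that were centred 95 bp and 101 bp upstream.

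In the 20S alpha ring, which gates the entry to the core, PSMA1 had peaks in all 4 libraries, with Nrf2 widths of 668 bp and 820 bp and HIF1α widths of 680 bp and 896 bp. The annotation places a start site of an unnamed coding gene closer to the PSMA1 Nrf2 peaks than that of PSMA1. PSMA3 had Nrf2 peaks of 537 bp and 570 bp and no HIF1α peak. PSMA5 had an Nrf2 peak of 433 bp and a HIF1α peak of 197 bp, both with iAs only. The alpha ring held a gene with peaks of Nrf2 alone and another with peaks of both factors in every condition.

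In the wider window 0 of the 7 beta ring genes had an Nrf2 control peak (background 10.6%), and 6 of the 7 had HIF1α peaks in each condition (background 29.0% in control cells and 54.7% with iAs). PSMB5 and PSMB6, which encode a pair of the proteolytic subunits, gained a start-site Nrf2 peak with iAs. At PSMB5 it was 427 bp wide and overlapped HIF1α peaks of 467 bp (control) and 485 bp (iAs). At PSMB6 it was 392 bp wide and overlapped a HIF1α iAs peak of 188 bp, and a HIF1α peak upstream, nearest to the start of GLTPD2, measured 198 bp without iAs and 1159 bp with it. At PSMB7, the remaining proteolytic subunit, the Nrf2 iAs peak of 235 bp lay in intron 5, where a HIF1α control peak of 242 bp overlapped it, and the start-site HIF1α peaks measured 258 bp (control) and 571 bp (iAs). The 3 immunoproteasome genes, which replace these subunits after interferon, had no Nrf2 peak in the wider window in either condition (background 10.6% and 19.6%).

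POMP, the chaperone that assembles the core, had an Nrf2 peak of 544 bp and a HIF1α peak of 408 bp, both with iAs only and overlapping each other. Among activator genes PSME4 alone had an Nrf2 peak, 667 bp wide, in intron 1 1501 bp from the start site, and the nearest start site was that of ACYP2. Its HIF1α iAs peaks of 460 bp and 398 bp did not overlap the Nrf2 peak.

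**Figure D2:**
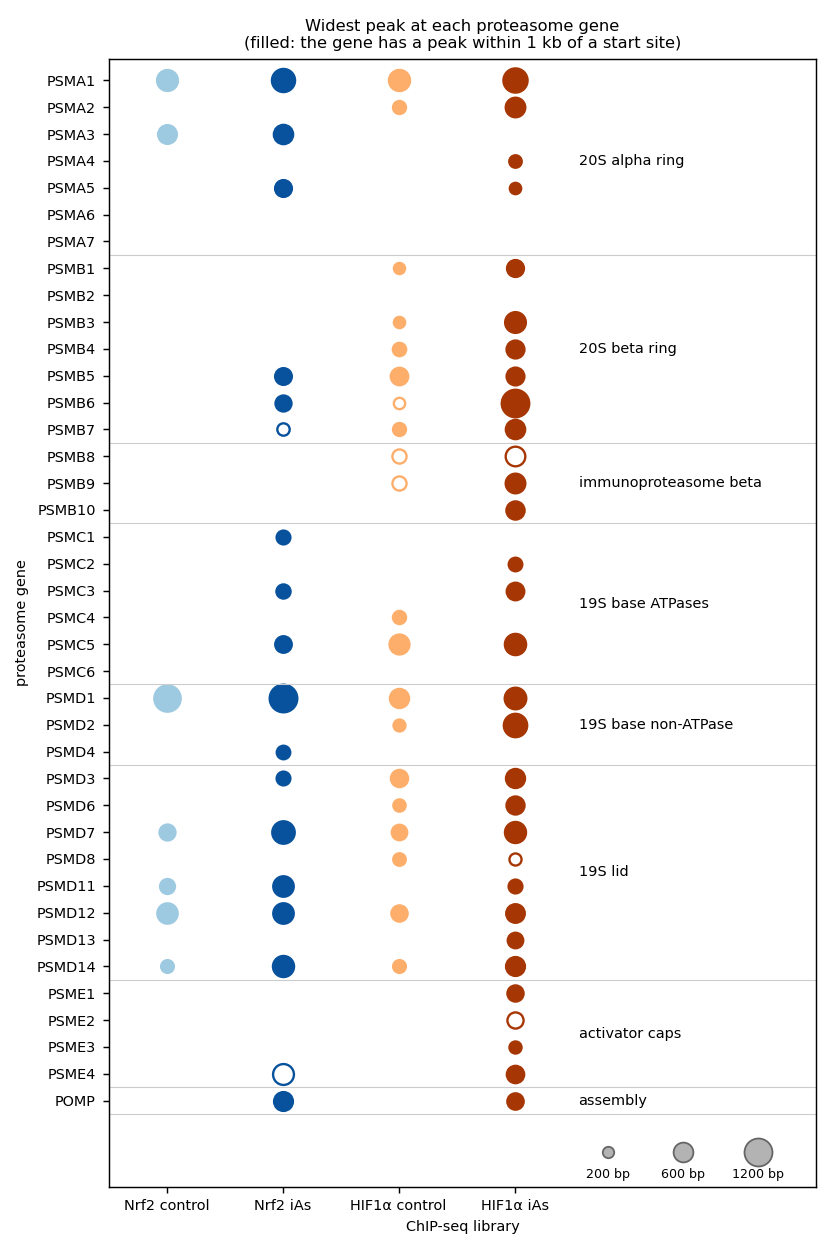
Each dot is the widest peak in the gene body or within 10 kb for a proteasome gene (y axis, by part of the particle) in a ChIP-seq library (x axis), with the dot area in proportion to the width in bp; a filled dot means that the gene has a peak of that library within 1 kb of a start site. The Nrf2 control column holds 7 dots and the Nrf2 iAs column 18. Blank in both are the genes with HIF1α peaks alone, the immunoproteasome genes among them, and the 4 genes without any peak.

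The Nrf2 peaks at these start sites were wider than most and lay on the gene side. Their median width was 537 bp without iAs and 488.5 bp with it, where all start-site Nrf2 peaks had medians of 357 bp and 329 bp. Measured from the nearest start site, the centre was downstream in 7 of 7 control peaks, at a median of 206 bp, and in 12 of 16 iAs peaks, at a median of 105 bp. Over all start-site Nrf2 peaks, 33.4% and 48.3% were downstream. All 7 genes with an Nrf2 peak in both conditions had overlapping peaks, and the iAs peak was the wider in each, by 1.01 to 2.75 times (median 1.23), as it was at 84.8% of other genes (median 1.34).

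**Figure D3:**
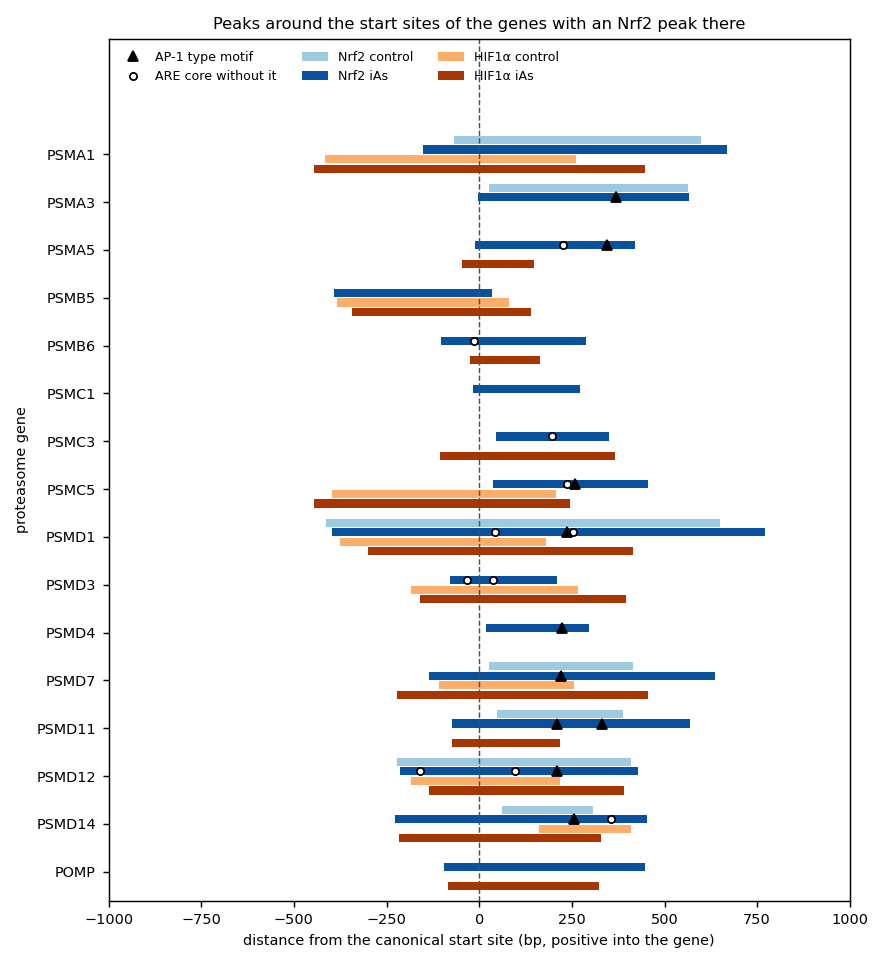
Peaks of the 4 libraries drawn to scale as bars around the canonical start site (x axis, distance in bp, positive into the gene) of the 16 proteasome genes (y axis) with an Nrf2 iAs peak within 1 kb of a start site. Triangles mark the heptamer TGACTCA and open circles TGACNNNGC with other middle letters, within the Nrf2 iAs peaks; the 10 triangles lie from 209 bp to 369 bp.

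For the comparison with all peaks, each peak was searched from 100 bp before its centre to 100 bp after it, on either strand. TGACTCA was in 6 of 16 Nrf2 iAs peaks at proteasome start sites (37.5%), against 13.8% of all start-site Nrf2 iAs peaks, and TGACNNNGC in 8 of 16, against 23.4%. TGACTCAGC, counted in both, was in 3. Either of the first 2 was in 10 peaks (62.5%, interval 38.6 to 81.5), against 29.6%, and over the whole peak in 12 (75.0%), against 44.7%. In Nrf2 control peaks TGACTCA was in 4 of 7, against 17.1%.

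The sequence around the start sites was also searched without regard to peaks, from 300 bp upstream to 300 bp downstream of the canonical start. TGACTCA was there in 9 of 39 proteasome genes, against 5.73% of all genes, and TGACTCAGC in 4, against 0.645%. Of the 16 genes with an Nrf2 iAs peak at the start site, 7 held TGACTCA, and of the 23 without, 2 did (PSMD2 and PSMB7). TGACNNNGC did not separate them in this way, with 8 of 16 and 13 of 23. It was there in 21 of the 39 proteasome genes (53.8%), against 23.4% of all genes, so it was common at these start sites with or without a peak. At HIF1α iAs peaks of proteasome start sites, TGACNNNGC was in 10 of 30 (33.3%), against 9.67% of all start-site HIF1α iAs peaks, whereas the HIF core ACGTG was in 5 (background 19.2%) and GCGTG in 8 (background 41.5%). GATGGCGGC, the core of a site bound by the zinc finger protein YY1, was in 4 of the 30, against 1.85%.

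17 proteasome genes had HIF1α peaks and no Nrf2 peak in the wider window. In the iAs libraries alone this held for 16 of the 39 (41.0%), close to the 39.8% of other genes. The widest HIF1α iAs peaks among the 17 were near other genes. The peak of 837 bp at PSMD2, a scaffold of the base, lay downstream at the start of EIF4G1. The peak of 658 bp at PSMB3 was nearest to PCGF2. PSMB8 and PSMB9 shared a peak of 590 bp at the start of TAP1, an antigen transporter gene, and in control cells a peak of 307 bp at TAP2.

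At their own start sites, PSMD2 had HIF1α peaks of 218 bp (control) and 498 bp (iAs), PSMB3 of 194 bp and 197 bp, and neither pair overlapped. Further genes with a HIF1α control peak and no Nrf2 peak were PSMB4 (272 bp, then 491 bp with iAs) and PSMD6 (231 bp, then 498 bp). At PSMA2 the start-site peaks, 259 bp and 228 bp wide, were nearest to the start of MRPL32. PSMB1 had a control peak of 190 bp at the neighbouring TBP, which was 439 bp wide with iAs, and a peak of 194 bp at its own start site with iAs.

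At 2 genes a HIF1α start-site peak was found in control cells alone. PSMC4 had a control peak of 262 bp and no peak in the iAs libraries. PSMD8 had a control peak of 240 bp, and with iAs a peak of 224 bp lay 12.4 kb away, downstream of the gene. PSMA4, PSMB10, PSMC2, PSMD13, PSME1, PSME2 and PSME3 had HIF1α peaks with iAs only, from 224 bp to 506 bp wide. PSMA6, PSMA7, PSMB2 and PSMC6 had no peak in any library, as was so for 38.6% of other genes.

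At 15 genes a HIF1α peak was centred near the start site in both conditions. The iAs peak was the wider in 14 of them, with a median ratio of 1.31, and at 83.1% of other genes, with a median of 1.58. Its centre lay further downstream in 11 of the 15 (73.3%), by a median difference of 78.0 bp over all 15, against 64.8% and 55.0 bp at other genes. At 12 of the 15 the peaks of the 2 conditions overlapped, and 9 of these 12 (75.0%) shifted downstream, against 64.6% at other genes. At PSMB1, PSMB3 and PSMD2 separate peaks were paired, so their differences are not shifts of a peak. The PSMB1 control peak overlapped another iAs peak, 439 bp wide and centred further upstream. PSMB4 shifted from 6 bp to 286 bp and PSMD1 from -98 bp to 57 bp, whereas PSMD14 moved the other way, from 285 bp to 56 bp.

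**Figure D4:**
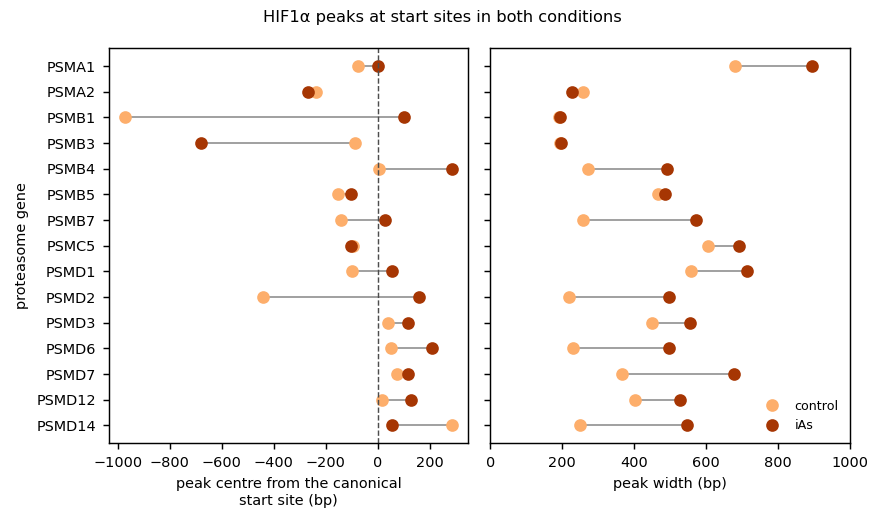
Centre of the HIF1α peak relative to the canonical start site (left, bp, negative upstream) and its width (right, bp) at the 15 proteasome genes (y axis) with a start-site peak in both conditions; light points are control and dark points iAs, 1 library each. The dark point is to the right in 11 genes for position and in 14 for width, and the long lines at PSMB1, PSMB3 and PSMD2 join peaks that do not overlap.

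Around the particle, 18 other genes of proteasome assembly and regulation were listed. At start sites, 2 had an Nrf2 control peak, PSMG2, an assembly chaperone, and ADRM1, a ubiquitin receptor. With iAs 4 did, those 2 and USP14, a deubiquitinase of the 19S particle, and NFE2L1. This is 22.2% of the 18, between the proteasome genes and the background. HIF1α iAs peaks lay at the start sites of 15 of the 18 (83.3%, background 44.3%), including all 8 assembly chaperones. NFE2L1 and the genes of the enzymes that process its product Nrf1, DDI2 and NGLY1, had HIF1α start-site peaks with iAs and not in control cells, and 32.8% of all genes had one found with iAs only.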

How the data were processed

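Nrf2 and HIF1α ChIP-seq in BEAS-2B cells was deposited as hg19 intervals named by library. The authors aligned reads with BWA, and the submitters' processing notes name MACS2 2.1.0. The study's methods name down-sampling of tags within a group for comparisons, and peak calling with MACS or SICER. Which caller made each list is not given in the sources used here. The deposited columns hold base positions, with no score. Starts, counted from 0 in the files, were made 1-based, and nothing else was changed. The labels and the study's methods name different suppliers for the antibodies. No file of the input library was used here.

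A gene had a peak when at least 1 bp overlapped the gene body plus 10 kb, or the 1 kb around a start site of a basic transcript, in GENCODE release 44 on GRCh37. Genes of similar length came from 20 bins of gene length. The work used Python 3.11.15, NumPy 2.4.6, SciPy 1.17.1 and pysam 0.24.0, and the counting was tested on simulated peaks. Letters are from the GRCh37 genome, and 9 motifs were searched. All 39 genes are accounted for. The width of every peak is given for genes with an Nrf2 peak. Of those with HIF1α peaks alone, the 3 with the widest iAs peak and those with a control peak are named, and so are the genes with no peak. The genes, lists and motifs were chosen with earlier results of these data known.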

Additional observations from a re-analysis of the deposited data

Results flagged for a closer look

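In intron 5 of PSMB7, 22.5 kb from its start site, a HIF1α peak of 242 bp at chr9:127155123-127155364 was found in control cells only and overlapped an Nrf2 peak of 235 bp at chr9:127155103-127155337 that was found with iAs only. It was flagged because the peak lists of the 2 factors changed in opposite directions at the same place. Both peaks were narrow, as 76.2% of Nrf2 iAs peaks and 64.4% of HIF1α control peaks were at least as wide. How often this occurs at other genes is not given here. Each value is 1 library, and the difference was not tested. The Nrf2 peak held the ARE core TGACAGAGC.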

How the results depend on the processing

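Of 135 values recomputed under another setting, 108 stayed close to those given (counts within 1.5 times, shares within the 95% Wilson interval) and 27 moved. Lists cut to the 3204 widest peaks each gave 10 proteasome genes with a HIF1α control peak (18.1% at similar length). With iAs, 14 had a HIF1α peak (22.2%) and 13 an Nrf2 peak (8.60%). Peaks found with iAs only were at 6 genes for Nrf2 and 8 for HIF1α, and peaks of both factors at 7. For iAs-only and both-factor counts in the cut lists, no share of all genes was computed. The same lists at start sites, chosen after seeing the data, gave 12 genes for Nrf2 iAs (2.74% at similar length), 8 for HIF1α control (11.4%), 9 for HIF1α iAs (15.5%), iAs-only peaks at 5 for Nrf2 and 3 for HIF1α, and both factors at 6. The wider 50% of peaks gave 9 genes for HIF1α control (17.3% at similar length) and 25 for HIF1α iAs (37.9%). The similar-length share was 5.77% at start sites for Nrf2 iAs, and within 50 kb it was 32.9% for Nrf2 iAs, 46.9% for HIF1α control and 70.5% for HIF1α iAs. Over the whole peak near proteasome genes, GCGTG was in 60.0% of Nrf2 iAs and 61.0% of HIF1α iAs peaks, and TGACTCA in 17.1% of HIF1α iAs peaks. CCAAT was in 37.5% of Nrf2 control, 25.0% of Nrf2 iAs and 24.4% of HIF1α iAs peaks, and CCGGAAG in 25.0% of Nrf2 iAs peaks. Over all Nrf2 iAs peaks the shares were 29.2% for GCGTG, 40.4% for CCAAT and 4.25% for CCGGAAG. Over those at start sites, where most peaks near proteasome genes lay, they were 53.3%, 32.5% and 13.8%. CCAAT was in 37.2% of all Nrf2 control peaks. The shares over all HIF1α iAs peaks are not given here. Shorter lists and longer windows hold fewer and more peaks by construction. No paired analysis was possible because each group has 1 library. Without depth or heights, a missing peak does not show that a factor was absent.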
